A study of Homo sapiens with 24 samples.

Results

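The genes described here make, load and remodel the lipoproteins that liver cells secrete. They were chosen by name, with earlier results of these data known. They are the apolipoproteins APOA1, APOA2, APOB, APOC1, APOC3, APOE, APOH and APOM, the microsomal triglyceride transfer protein MTTP and the plasma enzyme LCAT. Each was found in the count table by its Entrez identifier (335, 336, 338, 341, 345, 348, 350, 55937, 4547 and 3931 in that order). All 10 had a row among the 11927 genes of the table with an identifier, and 9 passed the filter on low counts that left 11152 genes for testing. APOM did not pass it and is given as counts only.

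Gene expression was measured by 3′ RNA-Seq in HepG2, an established human liver cancer line that secretes many plasma proteins. All cells carried the lentiCRISPRv2 vector and had been selected with puromycin. The vector held 1 of 3 guides, namely the control guide sgCtrl against the AAVS1 site, or sgKeap1-1 or sgKeap1-2 against KEAP1, the adaptor that marks the transcription factor NRF2 for degradation. Cells were then transfected with a nontargeting siRNA pool (siNC) or with siRNAs (sitfeb/sitfe3) to silence TFEB and TFE3, a pair of transcription factors of lysosomal genes, and RNA was taken 72 h later. The 6 groups of guide and siRNA held 4 libraries each, 24 in all. The 4 libraries of a group carry 4 different date-like prefixes in their descriptions, and each prefix is shared by the 6 libraries with the same replicate number, 1 from each group. What the prefixes date is not stated and nothing says that the libraries came from separate cultures, so the p-values measure the spread between these libraries, which may be technical.

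Lipoproteins carry cholesterol and triglyceride through blood in particles wrapped by apolipoproteins. APOB is the structural protein of very low density lipoprotein, and MTTP loads lipid onto it in the endoplasmic reticulum so that the particle can be secreted. APOA1 and APOA2 are the main proteins of high density lipoprotein, on which LCAT esterifies cholesterol. APOC1, APOC3 and APOE move between particles and steer their breakdown and uptake, and APOH, also named beta-2-glycoprotein I, binds phospholipid surfaces. Hepatocyte nuclear factors, among them HNF4, drive several of these genes in liver.

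Total counts ranged from 3527000 to 4600951 per library with a median of 4181650.5. The levels below are counts scaled to a common library size (CPM) on library sizes scaled by the trimmed mean of M-values (TMM), and each mean is given with its SD over 4 libraries. All fold changes and adjusted p-values are from 1 two-sided limma-voom fit over the 24 libraries, adjusted by Benjamini-Hochberg over the 11152 genes tested, and a gene was called at an adjusted p under 0.05. KEAP1 RNA itself was lower with sgKeap1-1 under siNC (53.8 ± 6.17 against 84.9 ± 6.69 CPM in sgCtrl, limma adjusted p 0.000102) and was not called with sgKeap1-2 (77.4 ± 3.89 CPM, adjusted p 0.448), while the NRF2 target NQO1 was higher with both (1593 ± 64.3 and 1799 ± 72.9 against 700.2 ± 36.1 CPM, limma adjusted p 1.47e-10 and 4.35e-12). A cut in DNA need not lower the transcript that is counted at its 3′ end. The siRNA pools lowered TFE3 in each guide background (log2 fold changes from -1.74 to -1.57), and TFEB was called lower in sgKeap1-1 and sgKeap1-2 and not in sgCtrl (-1.96, adjusted p 0.0858), where all 4 libraries nevertheless lay under the 4 siNC libraries. Under siNC, TFE3 was called higher with sgKeap1-2 than with sgCtrl and was not called with sgKeap1-1. Replicate 1 of siNC; sgKeap1-1 stood apart from the others with a limma quality weight of 0.204, as did replicate 1 of sitfeb/sitfe3; sgKeap1-2 with 0.222. Some results that rest on them are also given without them. All group means, SDs and shares of reads include them.

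The promoters of MTTP and APOH, which fell with both KEAP1 guides, are shown beside that of APOA2, which was not called with either. RefSeq promoter windows (GRCh38.p14) were at hand for 6 of the 10 members, with 9 start sites between them, and were searched over the 250 bases before each start on both strands. APOA1, APOB, APOC3 and LCAT had no window, so among the members that fell only MTTP and APOH were searched. MTTP has 2 annotated starts. The sequences below run from 250 bases before the start and stop short of transcribed bases, all in lower case because none held a motif searched for.
MTTP upstream start, chr4:99563880-99564079, plus strand: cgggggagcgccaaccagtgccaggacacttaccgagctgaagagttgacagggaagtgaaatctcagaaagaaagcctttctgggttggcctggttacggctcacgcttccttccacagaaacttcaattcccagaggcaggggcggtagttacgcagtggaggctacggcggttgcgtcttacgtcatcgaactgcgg
MTTP downstream start, chr4:99574574-99574803, plus strand: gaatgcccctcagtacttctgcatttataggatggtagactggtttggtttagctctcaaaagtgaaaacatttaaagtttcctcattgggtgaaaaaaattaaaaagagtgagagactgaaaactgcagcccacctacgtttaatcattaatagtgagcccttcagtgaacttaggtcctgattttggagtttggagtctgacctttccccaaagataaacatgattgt
APOH, chr17:66229426-66229665, minus strand: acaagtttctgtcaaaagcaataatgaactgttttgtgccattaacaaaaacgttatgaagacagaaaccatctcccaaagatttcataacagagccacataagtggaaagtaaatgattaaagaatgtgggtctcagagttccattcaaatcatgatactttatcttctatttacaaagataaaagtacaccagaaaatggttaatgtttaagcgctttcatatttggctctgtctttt
APOA2, chr1:161223639-161223878, minus strand: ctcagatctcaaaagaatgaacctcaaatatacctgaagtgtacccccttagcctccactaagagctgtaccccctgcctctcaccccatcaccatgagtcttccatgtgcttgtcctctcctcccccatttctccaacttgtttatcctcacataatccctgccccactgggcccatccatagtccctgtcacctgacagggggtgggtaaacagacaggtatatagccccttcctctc
None of the 9 member windows held the core of the antioxidant response element bound by NRF2 (TGACNNNGC, in 10.9% of all 35116 windows of this length in the table), the E-box bound by TFEB and TFE3 (CACGTG, in 6.34%) or the HNF4 motif CAAAGTCCA (in 0.325%). The absence of these letters from a window says nothing of whether the factors bind there.

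With KEAP1 targeted, 5 of the 9 members tested fell with each guide and under each siRNA: MTTP, APOA1, APOC3, APOH and LCAT. APOA2, APOB, APOC1 and APOE were not called in any of the 4 comparisons, and no member was called higher. Of all genes tested, 4.91% were called lower and 6.01% higher with sgKeap1-1 under siNC, 7.14% and 7.58% with sgKeap1-2 under siNC, 4.81% and 5.69% with sgKeap1-1 under sitfeb/sitfe3, and 9.59% and 10.6% with sgKeap1-2 under sitfeb/sitfe3. The median log2 fold change of the 9 members was -0.72, -0.65, -0.65 and -0.73 in that order, beside -0.02, 0.00, 0.00 and 0.01 over all genes tested. The 2 guides under 1 siRNA were set against the same sgCtrl libraries, so their comparisons are not independent.

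**Figure D1:**
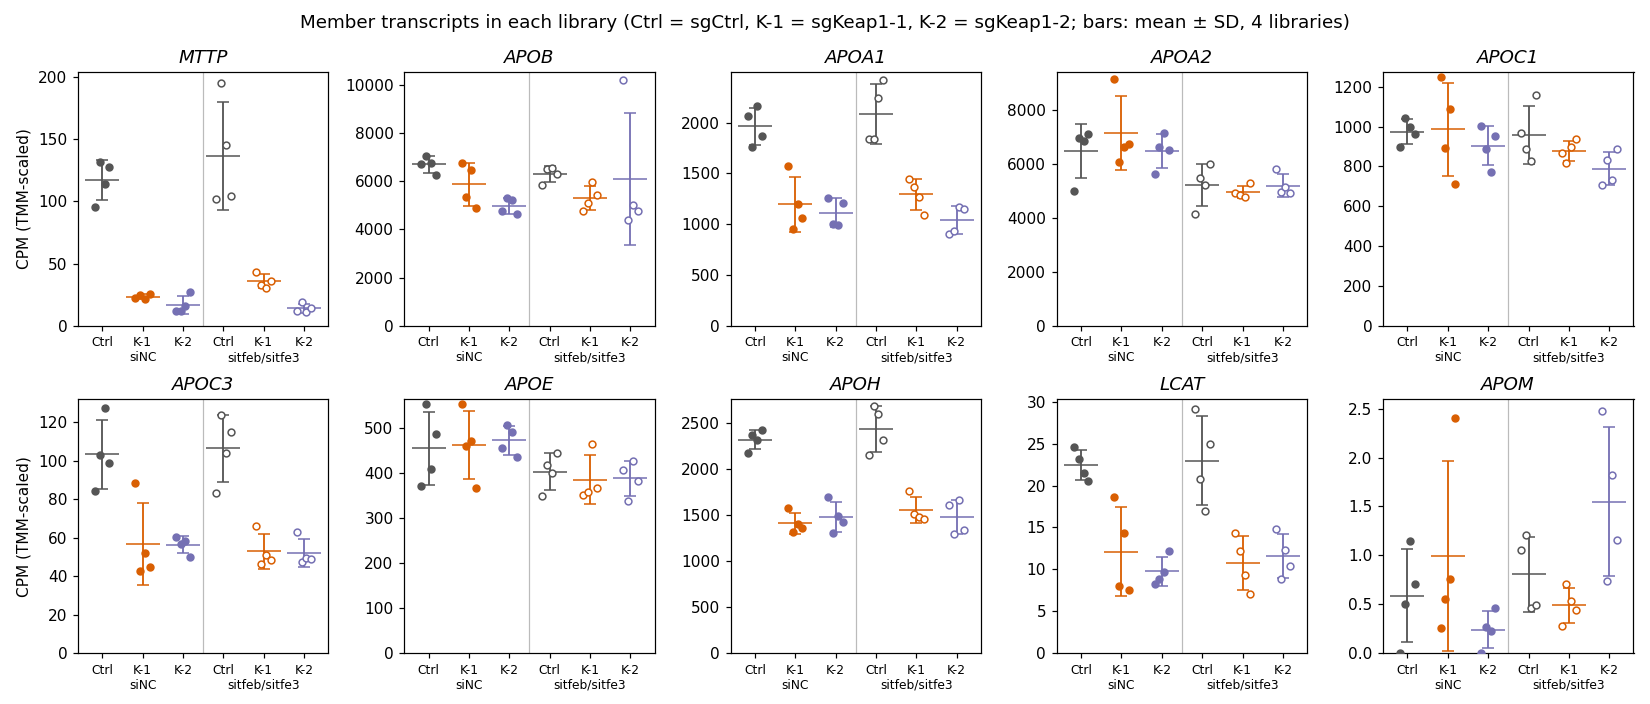
CPM of each of the 10 members (vertical axis, linear from 0) in each of the 24 libraries, by guide and siRNA on the horizontal axis; points are libraries (open under sitfeb/sitfe3) and bars give the mean ± SD. MTTP lay at 95.8 CPM or more in the 8 sgCtrl libraries and at 43.4 CPM or less in the 16 libraries with a KEAP1 guide.

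MTTP had the largest fall of the 9 members tested in all 4 comparisons. Its level under siNC was 95.8, 131, 114 and 127 CPM in sgCtrl (117 ± 16.1), 22.2, 25.0, 21.1 and 25.6 CPM in sgKeap1-1 (23.5 ± 2.16), and 12.1, 11.8, 15.8 and 27.2 CPM in sgKeap1-2 (16.7 ± 7.17). No library of either guide reached a control library. The log2 fold change was -2.31 (SE 0.22, limma adjusted p 3.48e-08) with sgKeap1-1 and -2.85 (SE 0.24, limma adjusted p 2.23e-09) with sgKeap1-2, which is 4.95-fold and 7.19-fold lower. Under sitfeb/sitfe3 the levels were 102, 195, 145 and 104 CPM in sgCtrl (136 ± 43.7), 43.4, 32.9, 30.5 and 35.6 CPM in sgKeap1-1 (35.6 ± 5.58), and 12.1, 18.9, 11.1 and 13.9 CPM in sgKeap1-2 (14.0 ± 3.48). The groups with a KEAP1 guide again lay wholly under the control, by -1.90 (SE 0.20, limma adjusted p 1.69e-07) and -3.25 (SE 0.25, limma adjusted p 4.5e-10). The 16 libraries with a KEAP1 guide held 39 to 161 counts of MTTP.

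APOB, the protein that MTTP lipidates, was not called in the same libraries. Under siNC it stood at 6708, 7053, 6769 and 6234 CPM in sgCtrl, at 6759, 5352, 6451 and 4904 CPM in sgKeap1-1, and at 4766, 5299.7, 5197 and 4630.2 CPM in sgKeap1-2. The sgKeap1-1 libraries overlapped the controls (-0.20, SE 0.16, limma adjusted p 0.501), and all 4 sgKeap1-2 libraries lay under them without passing the threshold (-0.43, SE 0.16, limma adjusted p 0.0763). With sitfeb/sitfe3 the levels were 5847, 6506, 6537 and 6308 CPM in sgCtrl, 4766, 5091, 5960.3 and 5412 CPM in sgKeap1-1, and 10185, 4402, 5000.2 and 4742 CPM in sgKeap1-2. The value of 10185 CPM belonged to sitfeb/sitfe3; sgKeap1-2 replicate 1, and the other 3 libraries of that group lay under every control. The log2 fold changes were -0.25 (SE 0.16, limma adjusted p 0.402) and -0.14 (SE 0.16, limma adjusted p 0.586), and the latter was -0.42 (SE 0.10, limma adjusted p 0.00218) without that 1 library. With all 6 libraries numbered 1 left out, APOB was called lower in all 4 comparisons, by -0.27 (SE 0.08), -0.40 (SE 0.08), -0.24 (SE 0.08) and -0.46 (SE 0.08) with limma adjusted p of 0.0237, 0.000657, 0.045 and 0.000125. In that fit 6.87%, 9.17%, 7.34% and 11.4% of 11185 genes were called lower, so the APOB call depends on the libraries numbered 1 and its size stayed well under that of MTTP.

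The unequal change of the pair showed within each library. For every 1000 counts of APOB there were 14.3 to 20.4 counts of MTTP in siNC; sgCtrl (median 17.7), 3.27 to 5.21 in sgKeap1-1 (median 3.98) and 2.23 to 5.86 in sgKeap1-2 (median 2.80). Under sitfeb/sitfe3 the medians were 19.8, 6.53 and 2.58. Because reads were counted near the 3′ end, such a ratio compares groups and is no ratio of molecules.

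**Figure D2:**
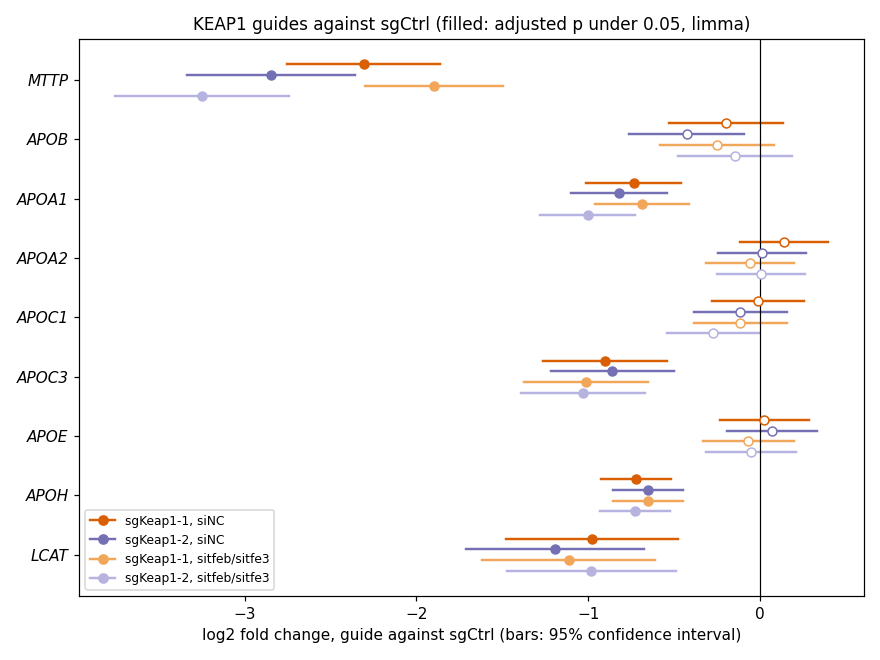
Log2 fold change of the 9 members tested (horizontal axis) with each KEAP1 guide against sgCtrl under each siRNA; lines are 95% confidence intervals and filled points passed an adjusted p of 0.05 in limma. MTTP ranged from -3.25 to -1.90, APOA1, APOC3, APOH and LCAT from -1.19 to -0.65, and the 4 members with open points from -0.43 to 0.14.

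The 2 main proteins of high density lipoprotein parted. APOA1 stood at 2068, 1756, 2160.2 and 1869 CPM in siNC; sgCtrl (1963 ± 184), at 1572, 949.9, 1201 and 1059.5 CPM in siNC; sgKeap1-1 (1196 ± 271), and at 1261, 1000.4, 988 and 1207 CPM in siNC; sgKeap1-2 (1114 ± 139.9). All 8 libraries with a KEAP1 guide lay under the 4 controls. Against sgCtrl the log2 fold changes were -0.74 (SE 0.13, limma adjusted p 0.00042) and -0.82 (SE 0.13, limma adjusted p 8.35e-05). Under sitfeb/sitfe3 the levels were 1840.0, 1836, 2246 and 2423 CPM in sgCtrl, 1440.1, 1369.6, 1267 and 1095 CPM in sgKeap1-1, and 905, 932, 1167 and 1152 CPM in sgKeap1-2. The order of the groups was as under siNC, with falls of -0.69 (SE 0.13, limma adjusted p 0.000824) and -1.003 (SE 0.13, limma adjusted p 4.13e-06). An antisense RNA, APOA1-AS, overlaps APOA1 and had no row of its own, and no strand setting was given for the counting, so reads from that partner cannot be told apart.

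APOA2, in contrast, stood at 4976, 6962, 6831 and 7119 CPM in siNC; sgCtrl (6472 ± 1005), at 9153, 6081, 6619.7 and 6719 CPM in sgKeap1-1 (7143 ± 1369) and at 5631, 6611, 7144 and 6495 CPM in sgKeap1-2 (6471 ± 627). The 3 groups overlapped, and the log2 fold changes were 0.14 (95% confidence interval -0.12 to 0.39) and 0.01 (-0.25 to 0.26). Under sitfeb/sitfe3 they were -0.06 (-0.32 to 0.20) and 0.00 (-0.25 to 0.26). These intervals leave out falls as large as the estimates for APOA1. For every 1000 counts of APOA2 the median library held 289 counts of APOA1 in siNC; sgCtrl, 165 in siNC; sgKeap1-1 and 169 in siNC; sgKeap1-2.

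LCAT, which acts on high density lipoprotein after secretion, fell with both guides. Under siNC it stood at 24.6, 23.2, 21.5 and 20.5 CPM in sgCtrl, at 18.6, 8.06, 14.3 and 7.47 CPM in sgKeap1-1, and at 8.19, 8.88, 9.72 and 12.2 CPM in sgKeap1-2. The libraries with a KEAP1 guide held 29 to 74 counts and lay under all 4 controls. The guides differed from sgCtrl by log2 fold changes of -0.98 (SE 0.24, limma adjusted p 0.00779) and -1.19 (SE 0.25, limma adjusted p 0.00143). The former was -0.76 (limma adjusted p 0.0524) without siNC; sgKeap1-1 replicate 4. With sitfeb/sitfe3 the levels were 29.2, 20.8, 16.9 and 25.0 CPM in sgCtrl, 14.4, 12.2, 9.36 and 7.08 CPM in sgKeap1-1, and 14.9, 8.86, 12.3 and 10.4 CPM in sgKeap1-2. The groups did not overlap there either, with log2 fold changes of -1.11 (SE 0.24, limma adjusted p 0.00273) and -0.98 (SE 0.24, limma adjusted p 0.00381). The annotated span of SLC12A4, a potassium chloride cotransporter gene, overlaps that of LCAT. SLC12A4 was not called in these comparisons (log2 fold changes from -0.35 to -0.09, limma adjusted p from 0.239 to 0.826).

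APOM, a carrier of sphingosine 1-phosphate on high density lipoprotein, had 0 to 10 counts in a library. The group sums over 4 libraries were 9, 16 and 4 counts under siNC and 13, 8 and 24 counts under sitfeb/sitfe3, in the order sgCtrl, sgKeap1-1, sgKeap1-2. With 3 counts taken as the floor, equal to 0.665 to 0.878 CPM in these libraries, most values were at or near it, and no difference between groups was read from them.

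Among the exchangeable apolipoproteins, APOC3, an inhibitor of triglyceride breakdown, fell while APOC1 and APOE were not called. APOC3 stood at 84.1, 103, 127 and 98.8 CPM in siNC; sgCtrl, at 88.2, 42.5, 51.8 and 44.8 CPM in siNC; sgKeap1-1, and at 60.1, 56.8, 58.5 and 50.2 CPM in siNC; sgKeap1-2. Replicate 1 of siNC; sgKeap1-1 overlapped the controls, and the other 7 libraries with a KEAP1 guide lay under them. On the log2 scale the changes were -0.91 (SE 0.18, limma adjusted p 0.000767) and -0.86 (SE 0.17, limma adjusted p 0.000955). Under sitfeb/sitfe3 the levels were 83.2, 124, 104 and 115 CPM in sgCtrl, 66.3, 46.1, 51.1 and 48.3 CPM in sgKeap1-1, and 62.8, 47.2, 49.5 and 49.1 CPM in sgKeap1-2. Those groups did not overlap the control, with log2 fold changes of -1.01 (SE 0.17, limma adjusted p 0.000218) and -1.03 (SE 0.18, limma adjusted p 9.34e-05).

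APOC1, an inhibitor of lipoprotein uptake, stood at 897, 1045, 997 and 961 CPM in siNC; sgCtrl, at 1247, 894, 1089 and 711 CPM in sgKeap1-1 and at 1002, 885, 774 and 953 CPM in sgKeap1-2. The control range lay inside that of sgKeap1-1. In limma the log2 fold changes were -0.01 (95% confidence interval -0.28 to 0.25) and -0.11 (-0.38 to 0.15) under siNC, and -0.12 (-0.38 to 0.15) and -0.28 (-0.54 to -0.01, limma adjusted p 0.148) under sitfeb/sitfe3. APOE, the ligand through which remnants are taken up by receptors, stood at 371, 553, 408 and 487 CPM in siNC; sgCtrl, at 553, 459.6, 470.1 and 367 CPM in sgKeap1-1 and at 456, 507, 491 and 435 CPM in sgKeap1-2. Its groups overlapped in all 4 comparisons, with log2 fold changes from -0.07 to 0.07 and 95% confidence intervals within -0.33 to 0.33. For every 1000 counts of APOC1 the median library held 101 counts of APOC3 in siNC; sgCtrl, 55.3 in siNC; sgKeap1-1 and 62.1 in siNC; sgKeap1-2.

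APOH fell by a similar amount in the 4 comparisons. It stood at 2172, 2363, 2314 and 2426 CPM in siNC; sgCtrl (2319 ± 108), at 1571, 1315, 1398 and 1355 CPM in siNC; sgKeap1-1 (1409.6 ± 113), and at 1695, 1305, 1490.1 and 1428 CPM in siNC; sgKeap1-2 (1479.7 ± 163). With sitfeb/sitfe3 the levels were 2148, 2687, 2596 and 2312 CPM in sgCtrl, 1755, 1513, 1482 and 1452 CPM in sgKeap1-1, and 1603, 1289, 1658 and 1341 CPM in sgKeap1-2. No library with a KEAP1 guide reached a control library under the same siRNA. The log2 fold changes were -0.72, -0.65, -0.65 and -0.73, each with an SE of 0.10, and the limma adjusted p lay between 4.55e-06 and 4.47e-05.

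APOA1 and APOC3 are neighbours on chromosome 11, with APOA4 and APOA5 beside them, and both fell. APOE and APOC1 are neighbours on chromosome 19, and neither was called. MTTP (chromosome 4), LCAT (chromosome 16) and APOH (chromosome 17), which fell, and APOA2 (chromosome 1) and APOB (chromosome 2), which were not called, each stand apart from the other members. Over the 24 libraries the log2 CPM of APOA1 and APOC3 correlated at a Pearson r of 0.872, and after each group's mean was taken out at 0.490, or 0.144 over the 18 libraries not numbered 1. For APOE and APOC1 the values were 0.461, 0.406 and 0.310. APOA2 and APOE correlated at 0.743 over 24 libraries, at 0.603 after the group means were taken out, and at 0.0223 without the libraries numbered 1. The points of these correlations share the groups and the library scaling, so they describe the libraries only.

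**Figure D3:**
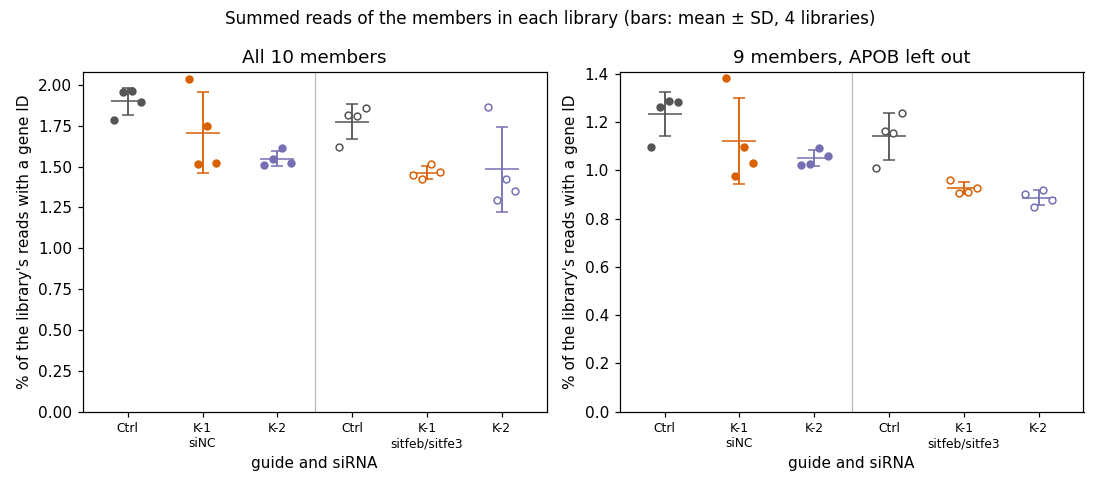
Summed reads of all 10 members (left) and of the 9 members without APOB (right) as a percentage of the reads with a gene identifier, in each of the 24 libraries; bars give the mean ± SD of 4 libraries. Means for all 10 ran from 1.46% to 1.90%, and the 2 highest libraries with a KEAP1 guide were siNC; sgKeap1-1 replicate 1 at 2.04% and sitfeb/sitfe3; sgKeap1-2 replicate 1 at 1.86%.

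Together the 10 members took 1.90% ± 0.0816 of reads in siNC; sgCtrl, 1.71% ± 0.248 in siNC; sgKeap1-1 and 1.55% ± 0.0465 in siNC; sgKeap1-2. Under sitfeb/sitfe3 the shares were 1.77% ± 0.107, 1.46% ± 0.0392 and 1.48% ± 0.260. APOB and APOA2 held most of these reads, and MTTP and LCAT added little to the sum. The called members APOA1 and APOH had a part in its fall. From sgCtrl to sgKeap1-1 under siNC, mean APOA1 went from 1963 to 1196 CPM and APOH from 2319 to 1409.6 CPM. In the same groups APOB went from 6691 to 5866 CPM and APOA2 from 6472 to 7143 CPM.

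The 2 KEAP1 guides were compared directly. No member was called under siNC, where no gene at all was called by limma (0% higher and 0% lower, with 598 genes at an unadjusted p under 0.05, 9 calls by DESeq2 and 2 by edgeR). Under sitfeb/sitfe3 no member was called by limma without a replicate block, beside 0% of genes higher and 0.00897% lower. MTTP was the member with the widest difference: all 4 libraries of sitfeb/sitfe3; sgKeap1-2 (11.1 to 18.9 CPM) lay under all 4 of sitfeb/sitfe3; sgKeap1-1 (30.5 to 43.4 CPM), a log2 difference of -1.35 (SE 0.27, 95% confidence interval -1.89 to -0.80, limma adjusted p 0.0744). With the replicate number as a block in the limma fit it passed the threshold (-1.33, SE 0.24, adjusted p 0.0214), as it did with edgeR (-1.34, adjusted p 0.0214) and with DESeq2 (-1.35, adjusted p 4.62e-05). The block raised the number of genes called between the guides from 0 to 2 under siNC and from 1 to 11 under sitfeb/sitfe3. Under siNC the guides overlapped for MTTP (-0.54, SE 0.27, limma adjusted p 0.815). The other 8 members differed between the guides by -0.31 to 0.13 on the log2 scale over both siRNAs.

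Whether siRNA knockdown of TFEB and TFE3 changed these transcripts was asked in each guide background. No member was called with limma in sgCtrl, sgKeap1-1 or sgKeap1-2. Few genes were called at all: 0% higher and 0.0179% lower in sgCtrl, 0.0179% and 0.0717% in sgKeap1-1, and 0.0986% and 0.26% in sgKeap1-2, with 516, 901 and 1169 genes at an unadjusted p under 0.05. DESeq2 called 11, 48 and 108 genes and edgeR 3, 15 and 33. With the replicate block limma called 4, 30 and 57 genes against 2, 10 and 40 without it, and no member. The median log2 fold change of the 9 members was 0.00, -0.14 and -0.13.

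**Figure D4:**
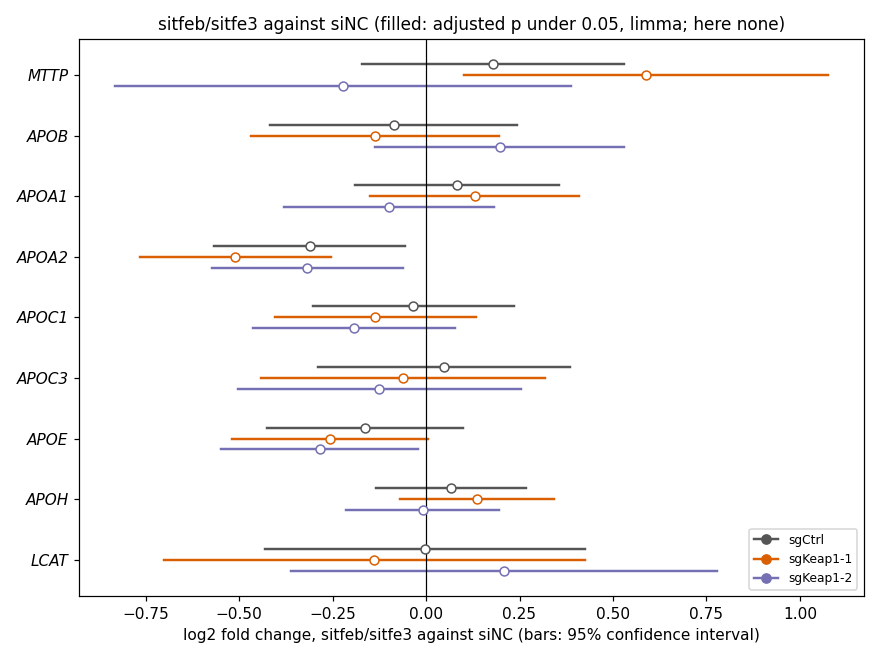
Log2 fold change of the 9 members tested with sitfeb/sitfe3 against siNC in each guide background (horizontal axis); lines are 95% confidence intervals and all points are open because none passed an adjusted p of 0.05 in limma. The 3 intervals of APOA2 lay under 0, from -0.77 to -0.06.

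APOA2 had the lowest log2 fold change of the 9 members on knockdown in each guide background, although it was not called in the fit over all libraries. It stood at 4154, 5479.6, 5212 and 5989 CPM in sitfeb/sitfe3; sgCtrl (5209 ± 773), at 4927, 4838, 4766 and 5297 CPM in sitfeb/sitfe3; sgKeap1-1 (4957 ± 236) and at 5800.2, 4942, 5121 and 4903 CPM in sitfeb/sitfe3; sgKeap1-2 (5192 ± 417), beside the siNC values given above. All 4 knockdown libraries lay under all 4 siNC libraries in sgKeap1-1, and the groups overlapped in the other backgrounds. Against siNC the log2 fold changes were -0.31 (SE 0.12, limma adjusted p 0.942), -0.51 (SE 0.12, limma adjusted p 0.118) and -0.32 (SE 0.12, limma adjusted p 0.323) in sgCtrl, sgKeap1-1 and sgKeap1-2. With all libraries numbered 1 left out APOA2 passed in all 3 backgrounds, at -0.33 (SE 0.06, limma adjusted p 0.025), -0.38 (SE 0.06, limma adjusted p 0.00314) and -0.44 (SE 0.06, limma adjusted p 0.000225), where 0.107%, 0.25% and 0.679% of 11185 genes were called lower. DESeq2 on all libraries called it in sgKeap1-1 (-0.53, adjusted p 0.0269). The call for APOA2 thus changes with the libraries numbered 1 and with the tool.

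MTTP was higher on knockdown in all 4 libraries of sgKeap1-1 than in any siNC library of that guide (0.59, SE 0.24, limma adjusted p 0.523), with log2 fold changes of 0.18 in sgCtrl and -0.22 in sgKeap1-2. APOE stood at 348, 418, 400.3 and 444 CPM in sitfeb/sitfe3; sgCtrl, at 351, 359, 465 and 366 CPM in sitfeb/sitfe3; sgKeap1-1 and at 407, 337, 427 and 383 CPM in sitfeb/sitfe3; sgKeap1-2. In sgKeap1-2 its 4 knockdown libraries lay under the 4 siNC libraries, and the log2 fold changes were -0.16, -0.26 and -0.29 with limma adjusted p of 0.43 or more. APOA1, APOB, APOC1, APOC3, APOH and LCAT changed by -0.19 to 0.21. The rise of APOB in sgKeap1-2 (0.20) included replicate 1 of the knockdown group at 10185 CPM. The other libraries of that group held 4402 to 5000.2 CPM, beside 4630.2 to 5299.7 CPM in siNC; sgKeap1-2. The test of whether knockdown altered the response to KEAP1 targeting, averaged over both guides, called no member, with log2 differences between -0.14 and 0.12. It called no gene by limma (0% higher and 0% lower, 349 at an unadjusted p under 0.05), and none by edgeR or DESeq2. The 95% confidence intervals of this difference ran from -0.25 to 0.24 for APOH and from -0.52 to 0.53 for MTTP. For MTTP the average joined opposite shifts of the guides. With sgKeap1-1 its log2 fold change was -2.31 under siNC and -1.90 under sitfeb/sitfe3, and with sgKeap1-2 -2.85 and -3.25. Whether knockdown altered the response of MTTP to each guide alone was not tested.

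The members were next set beside other genes of lipoprotein metabolism, in lists that were drawn up with earlier results of these data known. Of all genes tested, 4.91%, 7.14%, 4.81% and 9.59% were called lower and 6.01%, 7.58%, 5.69% and 10.6% higher in the 4 KEAP1 comparisons. Those shares are from the fit without a replicate block, and several counts in the lists that follow lie near them. Counts near them are not read as a result about a list. The first list held other genes named as apolipoproteins or linked to lipoproteins, and not all of their proteins are secreted. Of 12 tested, 1, 3, 1 and 2 fell and 1, 1, 2 and 1 rose in the 4 KEAP1 comparisons. With the replicate block 2 fell with sgKeap1-1 under each siRNA, and 2 rose with sgKeap1-2 under sitfeb/sitfe3. APOA5, an activator of triglyceride breakdown and a neighbour of APOA1, fell in all 4 KEAP1 comparisons (37.8 CPM in siNC; sgCtrl against 21.1 CPM in siNC; sgKeap1-2, with log2 fold changes of -0.83 and -0.85 for the guides under siNC), and PON2, an intracellular lactonase, rose in all 4 (0.30 to 0.41). Of 22 genes of assembly and export, 3, 2, 3 and 4 fell and 0, 0, 0 and 1 rose. CIDEB, a lipid droplet protein that aids lipidation of particles, fell from 116 to 56.5 and 59.9 CPM under siNC (-1.05 and -0.95), and DGAT2, which makes triglyceride, from 70.7 to 51.0 and 50.6 CPM (-0.49 and -0.50). Both passed in all 4 comparisons. The other 20 were not called with both guides under siNC.

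Of 23 receptors, lipases and transfer proteins tested, 3, 1, 5 and 6 fell and 2, 3, 2 and 3 rose, and with the replicate block 3 fell with sgKeap1-2 under siNC. CD36, a fatty acid receptor, rose from 3.22 to 15.4 and 18.5 CPM (2.39 and 2.61), and LRP8, a receptor for APOE, from 52.2 to 91.5 and 89.0 CPM (0.82 and 0.78). On knockdown no gene of these 3 lists was called in any background.

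Transcription factors known to act on apolipoprotein genes were examined next, in a list that was not split into activators and repressors. Of 22 tested, 5, 5, 7 and 10 fell and 0 rose in the 4 comparisons (1 rose with sgKeap1-1 under siNC with the replicate block), with list medians of -0.33, -0.21, -0.38 and -0.39. CREB3L3, a membrane-bound transcription factor of lipid genes in liver and intestine, fell from 14.6 to 5.97 and 7.48 CPM under siNC (-1.30 and -1.02), and NR2F2, an orphan nuclear receptor, from 137 to 89.5 and 76.4 CPM (-0.62 and -0.85), and both passed in all 4 comparisons. FOXA3 passed with both guides under siNC (-0.49 and -0.55). HNF4A, named after its values were seen, was called in 3 of the 4 comparisons and missed the threshold with sgKeap1-2 under siNC (-0.33, limma adjusted p 0.0502).

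**Figure D5:**
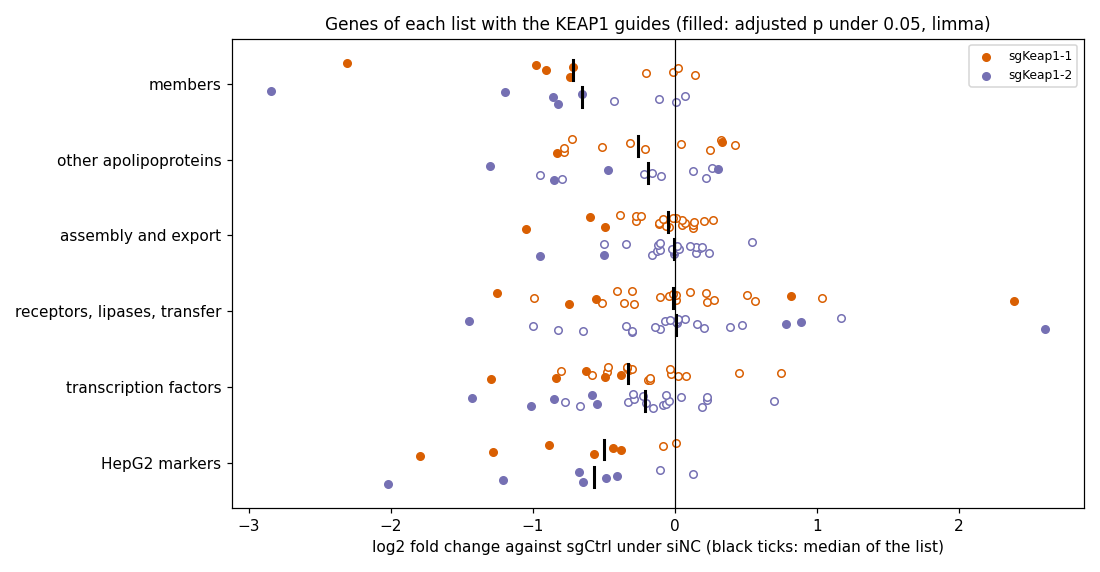
Log2 fold change with sgKeap1-1 and sgKeap1-2 against sgCtrl under siNC (horizontal axis) for each gene tested of the members, 4 lists of lipoprotein metabolism and the HepG2 markers; filled points passed an adjusted p of 0.05 in limma and black ticks give list medians. The medians of the members (-0.72 and -0.65) and of the HepG2 markers (-0.50 and -0.57) lay to the left of those of assembly and export (-0.05 and 0.00).

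The fall of these 5 members came with lower secreted markers of the line itself. All 8 HepG2 markers were present, and ALB, AFP, TF, FGA, FGB and AHSG fell in all 4 KEAP1 comparisons, while SERPINA1 and TTR were not called. Their summed level was 20779 to 33160 CPM in siNC; sgCtrl and 12560 to 14784 CPM in siNC; sgKeap1-1, 12873 to 14138 CPM in siNC; sgKeap1-2, 19421 to 30457 CPM in sitfeb/sitfe3; sgCtrl, and 12472 to 14438 and 10857 to 13045 CPM with the guides under sitfeb/sitfe3. Of the bile duct markers, KRT19 rose in all 4 comparisons (268 to 648 and 615 CPM under siNC), SOX9 fell in 3, EPCAM was not called and KRT7 had no row. Their summed level was 708 to 903 CPM in the 8 sgCtrl libraries and 891 to 1379 CPM with a KEAP1 guide. PTPRC, PECAM1, VWF, CDH5, DCN and LUM had no row, CD68 and CD14 summed to at most 8.41 CPM, and of the fibroblast markers PDGFRB alone had a row. PDGFRB stood at 8.23 to 11.6 CPM in siNC; sgCtrl, 2.52 to 8.80 CPM in siNC; sgKeap1-1, 3.39 to 6.78 CPM in siNC; sgKeap1-2, 4.86 to 6.76 CPM in sitfeb/sitfe3; sgCtrl, 1.34 to 2.66 CPM in sitfeb/sitfe3; sgKeap1-1 and 2.08 to 4.998 CPM in sitfeb/sitfe3; sgKeap1-2. It moved in the direction of the 5 members, with log2 fold changes of -0.75, -0.86, -1.48 and -0.77, and was called with sgKeap1-1 under sitfeb/sitfe3 (limma adjusted p 0.0224) and not in the other 3 comparisons. In bulk RNA, fewer cells that express a gene and less RNA per cell cannot be told apart, and the part of these markers in the fall of the members was not tested.

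For 8 of the members the gene with the most similar pattern of log2 CPM over the 24 libraries is given, out of 7845 genes with a mean of at least 50 counts. For MTTP it was COL2A1, a fibrillar collagen (Pearson r 0.975). For APOH it was HMGCS1 (0.945) and for APOC3 SQLE (0.934), which are both enzymes of cholesterol synthesis. APOA1 was most like RAB11FIP4 (0.942), LCAT most like MAL2 (0.891) and APOA2 most like the chaperone CANX (0.917). APOC1 and APOE had weaker best matches, RPL27A (0.843) and PIK3CD (0.751). Libraries of 6 groups on 1 scaling underlie all of these values, and genes that part the same groups correlate for that reason alone.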

How the data were processed

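RNA of 24 HepG2 libraries (6 groups of guide and siRNA, 4 each) was read as single-end 3′ tags. The authors deposited 1 table of raw counts per gene. The submitters' processing notes name FastQC 0.72, cutadapt 1.16, STAR 2.7.5b, featureCounts 1.6.3 and limma 3.40.6 and the build hg38, whereas the study's methods name hg19. The annotation and strand setting are not given in the sources used here. Counting at the 3′ end makes levels of different genes poorly comparable.

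Of 13446 rows, 1414 without an identifier were left out (1.35% to 2.57% of reads), 43 rows sharing 20 identifiers were summed and 160 identifiers with identical rows were kept as 78 features. Symbols and neighbours came from the RefSeq gene table and promoters from the RefSeq promoter table (GRCh38.p14). Genes were filtered by filterByExpr, scaled by TMM and fitted as 6 group means by voom, which was tested on simulated data. The simulated counts held no effect of the replicate number and no deviant libraries, so that test does not cover either. The limma version was 3.58.1, run in R 4.3.3 with edgeR 4.0.16. DESeq2 1.42.0, edgeR, other scalings, filters, quality weights, a replicate block and omitted libraries were alternatives.

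Each replicate number goes with 1 date-like prefix in the labels' descriptions in all 6 groups, so the numbers may pair the libraries. The main fit did not use this pairing, and the fit with the number as a block was an alternative. Deviations from the group means correlated at -0.163 to 0.430 (median 0.046) between same-numbered libraries and at -0.309 to 0.254 (median -0.025) between others. The median was 0.123 between the libraries numbered 1.

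All members are named. From each list, genes called with both guides under siNC in 1 direction are named, at most 4 per direction, and any 2 called on knockdown. The most similar gene is named for each member. Some results under this rule are not reported here. The members and lists were chosen with earlier results of these data known. Total counts were 3527000 to 4600951 per library, which limits the precision for low genes such as APOM.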

Additional observations from a re-analysis of the deposited data

Results flagged for a closer look

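In 4 of the 54 sets of 4 libraries (9 members in 6 groups), 1 library lay far from the other 3 by Dixon's test at the 95% level, and chance alone flags about 1 in 20 such sets. APOB stood at 10185 CPM in sitfeb/sitfe3; sgKeap1-2 replicate 1, against 4402 to 5000.2 CPM in the other 3 libraries. APOC3 in that same library stood at 62.8 CPM, against 47.2 to 49.5 CPM. APOA2 stood at 4976 CPM in siNC; sgCtrl replicate 1, against 6831 to 7119 CPM. APOE stood at 465 CPM in sitfeb/sitfe3; sgKeap1-1 replicate 3, against 351 to 366 CPM. The causes were not tested.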

How the results depend on the processing

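The 44 log2 fold changes followed under 35 alternative settings gave 836 values. Of the 20 that were called, 379 values kept direction and call and 1 lost the call: LCAT with sgKeap1-1 under siNC without siNC; sgKeap1-1 replicate 4 (-0.76, limma adjusted p 0.0524). Of the 24 that were not called, 402 values kept direction and side of the threshold, 18 passed it and 36 changed sign, all of small size.

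With sgKeap1-1 under siNC, APOA2 changed sign with quality weights (-0.024) and without the libraries numbered 1 (-0.11), APOC1 with edgeR (0.015) and DESeq2 (0.016), and APOE with quality weights (-0.055) and without the libraries numbered 1 (-0.16). With sgKeap1-2 under siNC, APOA2 changed sign with edgeR (-0.00031), quality weights (-0.029) and without the libraries numbered 1 (-0.044), and APOE in that last fit (-0.0075). With sgKeap1-2 under sitfeb/sitfe3, APOA2 changed sign with edgeR (-0.0047), DESeq2 (-0.0084), upper-quartile factors (-0.025), the members left out of the scaling (-0.0058), no filter (-0.0072), a mean of at least 10 counts (-0.0015), quality weights (-0.061) and without the libraries numbered 1 (-0.16). Omitting single libraries gave -0.14 to 0.14 for APOC1 and -0.067 to 0.14 for APOE with sgKeap1-1 under siNC, -0.11 to 0.081 for APOA2 and -0.027 to 0.17 for APOE with sgKeap1-2 under siNC, -0.16 to 0.016 for APOA2 with sgKeap1-1 under sitfeb/sitfe3, and -0.10 to 0.080 for APOA2 and -0.12 to 0.017 for APOE with sgKeap1-2 under sitfeb/sitfe3. MTTP on knockdown ranged from -0.0035 to 0.30 in sgCtrl and from -0.37 to 0.053 in sgKeap1-2.

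On knockdown 1 member was called in sgCtrl without the libraries numbered 1, 1 in sgKeap1-1 with DESeq2, quality weights or without the libraries numbered 1, and 1 in sgKeap1-2 with quality weights or without the libraries numbered 1, in each case APOA2. Between the guides under sitfeb/sitfe3, 1 member (MTTP) was called with edgeR, DESeq2 or the replicate block (-1.33, adjusted p 0.0214).

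With the replicate block limma called 1454, 1902, 1381 and 2480 genes in the 4 KEAP1 comparisons, against 1218, 1641, 1170 and 2253 without it. Pairing by the replicate number changed the call of MTTP between the guides and of no other member. The causes were not tested. Depth limits APOM and LCAT most.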
